A study of Mus musculus with 10 samples.

Results

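The 10 genes described here belong to the BCL2 family, which decides at the mitochondrion whether a cell starts apoptosis. They were chosen by symbol in the 10 deposited count files and comprise 3 pro-survival genes (Bcl2, Bcl2l1 and Mcl1), 2 effector genes (Bax and Bak1) and 5 genes for BH3-only proteins (Bid, Hrk, Bcl2l11, Bbc3 and Bad). All 10 were found among the 24391 genes listed, and all 10 were among the 12835 genes that passed the filter on low counts. RNA was sequenced from 5 lines, each grown from a mouse tumour of small cell lung cancer (SCLC), a neuroendocrine cancer of the lung, and named G4314, G9351, G9488, G9529 and G9577. Every line, as labelled, carries altered Rb and p53 alleles, a MYCN transgene behind the tetracycline-responsive element TRE and the doxycycline-dependent activator rtTA (LSL-RTTA). For each line, 1 library came from cells kept in doxycycline, called MYCN on, and 1 from cells from which the drug had been withdrawn for 4 days, called MYCN off. Both conditions thus share the Rb and p53 alleles and both transgenes, each line comes with 1 culture per condition, and the sources used here do not give the enzyme or promoter that opened the LSL allele. Since every culture carries the transgene, effects of MYCN and of doxycycline cannot be told apart.

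Pro-survival BCL2 proteins hold the effectors BAX and BAK1 in check, and BH3-only proteins bind the pro-survival proteins or activate the effectors directly. Once active, BAX and BAK1 open the outer mitochondrial membrane, cytochrome c escapes, and caspases are activated. MYC proteins are known both to drive growth and to sensitise cells to apoptosis, and SCLC is known for dependence on BCL2, BCL-XL (the product of Bcl2l1) or MCL1.

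The libraries held 9586465 to 11960074 counts. Levels of 1 gene across libraries are given as CPM, the count of a gene relative to the TMM-scaled total of its library. Levels of different genes are compared as RPKM, which also divides by the length of the gene model. Mycn, the check of the labels, stood at 538, 496, 884, 791 and 977 CPM with MYCN on in G4314, G9351, G9488, G9529 and G9577, and at 177, 27.6, 189, 109.8 and 85.9 CPM with MYCN off. No off library reached the lowest on library, and the counts do not separate the transgene from the mouse gene. The species of the transgene was not stated in the labels, and if it is human, some of its reads may fail to align to mouse Mycn, so these levels may miss part of its transcript. The line G9577 stood apart from the other 4. The 12 neuroendocrine markers summed to 238 CPM (MYCN on) and 249 CPM (MYCN off) in G9577, whereas the other lines ran from 3532 to 4409 CPM on and from 5693 to 7317 CPM off. Dll3 had 0 counts in G9577, but it was also low in G9488, at 4.74 CPM on and 5.28 CPM off. Some markers were present in G9577, although below every library of the other lines. These were Ncam1 (99.8 CPM on, 125 CPM off), Uchl1 (118 and 17.3) and Syt1 (13.5 and 75.6). The SCLC label of G9577 is thus not matched by the sum of these markers. The 10 non-neuroendocrine markers, among them Vim, summed to 4468 and 17325 CPM in G9577 and to between 55.4 and 202 CPM in the other 8 libraries. Of the 11 neuroendocrine markers tested, 7 were lower with MYCN on and 0 were higher, and of the 6 non-neuroendocrine markers tested, Yap1 was higher. Over all genes tested, 15.6% were lower and 15.3% were higher, so the 1 call among the 6 is near the share of all genes. Leukocyte markers summed to at most 6.45 CPM in the libraries other than the MYCN-off library of G9577, which had 61.3 CPM, of which Lyz2 alone gave 54.99 CPM, with Ptprc and Cd3e at 0 counts. The part of these marker differences in the results below was not tested.

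Of the 10 members, 5 changed with MYCN in edgeR's quasi-likelihood test with the line as a block and Benjamini-Hochberg adjustment over all genes tested at a threshold of 0.05. Bax, Bid and Hrk, which promote death, were higher with MYCN on. Bcl2l1, which protects from death, and Bcl2l11, which promotes it, were lower. Bcl2, Mcl1, Bak1, Bbc3 and Bad did not pass. In the same test 31.0% of the 12835 genes tested were called in either direction, and 15.3% of all genes tested were higher and 15.6% lower. The 5 calls among the 10 members, 3 higher and 2 lower, are read against these shares. The median log2 change of the 10 members was -0.08, the same to 2 decimals as the -0.08 over all 12835 genes. A gene whose 5 on libraries and 5 off libraries did not overlap made up 9.23% of the genes tested, and Bax was the 1 member of this kind. In bulk libraries, fewer cells of a type and less RNA per cell cannot be told apart.

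**Figure D1:**
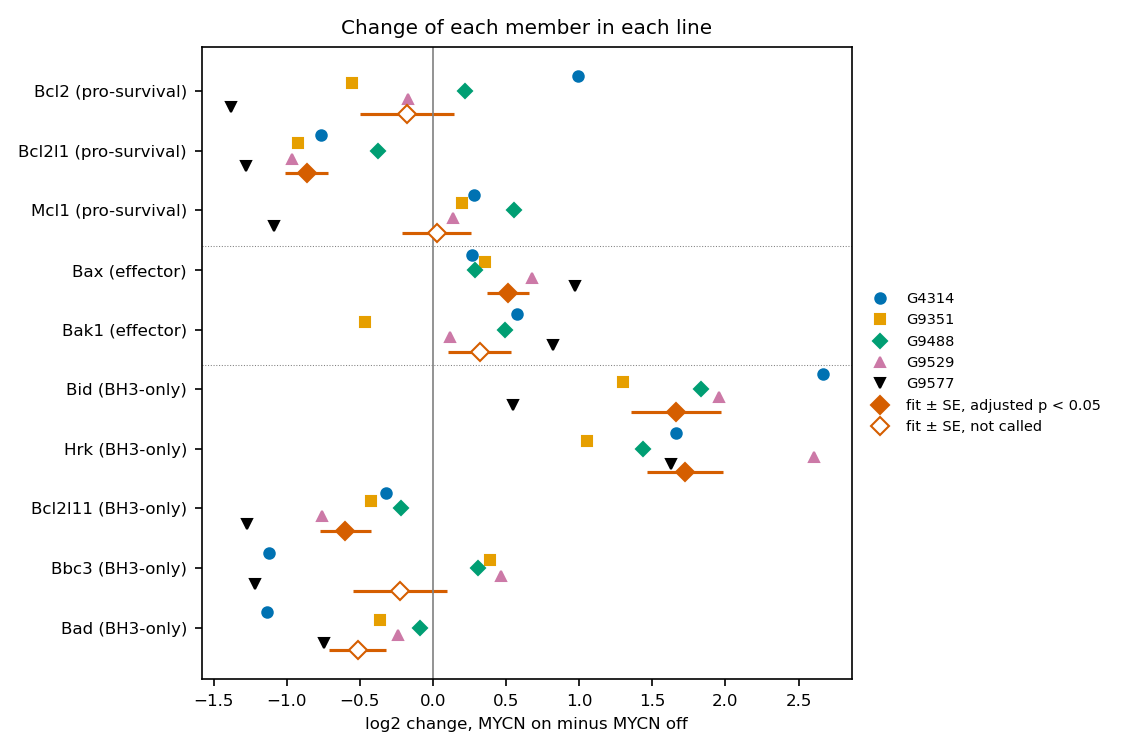
Change of each member, as log2 CPM with MYCN on minus MYCN off (x axis), for the 10 genes grouped by role (y axis); small symbols are the 5 lines and the orange diamonds are the fitted change ± SE, filled where the adjusted p is below 0.05. Bid and Hrk lie right of 0 in all 5 lines with fitted changes of 1.66 and 1.72. Bcl2l1 lies left of 0 in all 5 lines. Bcl2, Mcl1, Bak1 and Bbc3 have lines on both sides.

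Bcl2l1 encodes BCL-XL, which binds BAX, BAK1 and most BH3-only proteins (mm9 chromosome 2, 152584468 to 152657464, minus strand). With MYCN on it stood at 88.9, 79.8, 66.8, 61.3 and 58.1 CPM in G4314, G9351, G9488, G9529 and G9577, and with MYCN off at 151, 152, 86.7, 119.7 and 141 CPM in the same order. Every line had less Bcl2l1 with MYCN on, and the groups overlapped only in that G4314 on exceeded G9488 off. Mean levels were 71.0 ± 13.0 CPM on and 130.1 ± 27.5 CPM off (SD, n = 5 lines). The fitted log2 change was -0.86 (SE 0.15), or 1.82-fold lower, with an edgeR adjusted p of 0.00792. The smallest change, -0.38, was in G9488, and the largest, -1.28, in G9577. Leaving out any 1 line kept the call, with edgeR adjusted p between 0.00631 and 0.0359.

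Mcl1 encodes a short-lived pro-survival protein that binds BAK1 and NOXA (mm9 chromosome 3, 95462643 to 95467101, plus strand). It stood at 219, 187, 211, 176 and 336 CPM with MYCN on, in the same order of lines, and at 181, 162, 143, 160.4 and 716 CPM with MYCN off. The off library of G9577 was far above all others, and G9577 was the 1 line with less Mcl1 when MYCN was on. Its change there was -1.09, while the other 4 lines changed by 0.14 to 0.56. The fitted log2 change over the 5 lines was 0.03 (SE 0.23, 95% interval -0.52 to 0.57; edgeR adjusted p 0.942), and its sign turned under several alternatives. Without G9577 it was 0.30 with an edgeR adjusted p of 0.0677, in a range of 0.0677 to 0.999 over all alternatives.

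Bcl2, the founding pro-survival member (mm9 chromosome 1, 108434755 to 108610867, minus strand), had the widest disagreement between lines in the pro-survival group. With MYCN on it stood at 47.2, 50.2, 32.1, 30.5 and 16.8 CPM, and with MYCN off at 23.6, 73.7, 27.6, 34.4 and 44.0 CPM. G4314 had more Bcl2 with MYCN on, by 0.99 on the log2 scale, and G9577 had less, with a change of -1.38. Over the 5 lines the fitted log2 change of Bcl2 was -0.18 (SE 0.32, 95% interval -0.94 to 0.58; edgeR adjusted p 0.691), and it was 0.12 without G9577.

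**Figure D2:**
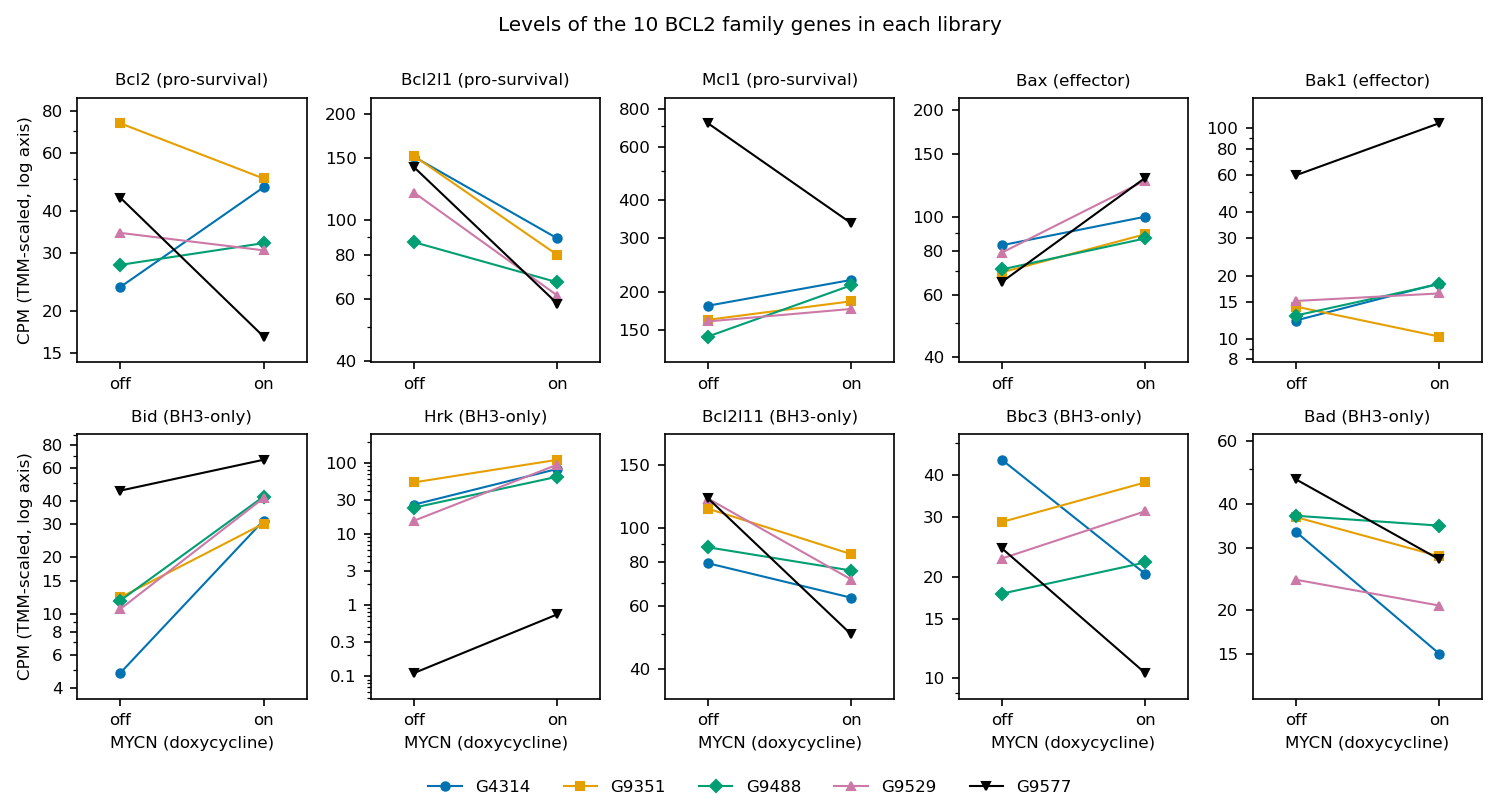
TMM-scaled CPM (log axis, scale set for each panel) of each member with MYCN off and on; each symbol is 1 library and each line joins the off and on libraries of 1 cell line. Bcl2l1 and Bcl2l11 slope down and Bax, Bid and Hrk slope up in all 5 lines, while G9577 (black) lies far above the other lines for Bak1 and far below them for Hrk.

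Bax encodes the effector that moves from the cytosol to mitochondria on activation (mm9 chromosome 7, 52717065 to 52722268, minus strand). It stood at 99.9, 89.1, 86.7, 126 and 129 CPM with MYCN on, in G4314, G9351, G9488, G9529 and G9577, and at 83.0, 69.6, 70.9, 79.1 and 65.3 CPM with MYCN off. The lowest on library, 86.7 CPM, was above the highest off library, 83.0 CPM. Mean levels were 106 ± 20.1 CPM on and 73.6 ± 7.24 CPM off (SD, n = 5 lines). Bax was higher in 5 of 5 lines, with a fitted log2 change of 0.51 (SE 0.14), or 1.43-fold, and an edgeR adjusted p of 0.0341. The call was lost without G4314, G9351, G9488 or G9529, with edgeR adjusted p of 0.0771, 0.0923, 0.0581 and 0.110 in that order and log2 changes of 0.45 to 0.61. Over all alternatives the adjusted p of Bax ran from 0.0240 to 0.110.

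Bak1, the effector that sits in the mitochondrial membrane from the start (mm9 chromosome 17, 27156757 to 27165571, minus strand), did not pass. With MYCN on it stood at 18.3, 10.3, 18.2, 16.4 and 106 CPM, and with MYCN off at 12.2, 14.2, 12.9, 15.1 and 59.9 CPM. Both libraries of G9577 were several times above every library of the other lines, and G9351 was the 1 line with less Bak1 when MYCN was on. For Bak1 the fitted log2 change was 0.32 (SE 0.22, 95% interval -0.19 to 0.83; edgeR adjusted p 0.282).

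Bid encodes a BH3-only protein that caspase 8 cuts into an activator of BAX and BAK1, which ties death receptors to mitochondria (mm9 chromosome 6, 120843137 to 120866838, minus strand). It stood at 31.5, 30.3, 42.3, 41.5 and 66.6 CPM with MYCN on and at 4.80, 12.2, 11.7, 10.6 and 45.5 CPM with MYCN off, in the order of lines used above. In the 4 lines other than G9577 every on library was above every off library, and the off library of G9577 was above 4 of the on libraries. Bid was 3.17-fold higher with MYCN on in the fit, a log2 change of 1.66 (SE 0.31), with an edgeR adjusted p of 0.00961. The rise was smallest in G9577, at 0.55, and largest in G4314, at 2.66. Without G9577 the fitted change was 1.95, and no line left out ended the call, with edgeR adjusted p of 0.00247 to 0.0334.

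Hrk, also called harakiri, encodes a BH3-only protein that binds BCL-XL and is known mainly from neurons (mm9 chromosome 5, 118619773 to 118639487, plus strand). With MYCN on it stood at 82.9, 112, 64.4 and 95.3 CPM in G4314, G9351, G9488 and G9529, and with MYCN off at 26.1, 53.6, 23.7 and 15.5 CPM. In these 4 lines no off library reached an on library. In G9577 Hrk was nearly absent, with 8 counts (0.745 CPM) on and 1 count (0.111 CPM) off, the latter under the floor of 3 counts (0.334 CPM). The ratio of CPM in G9577 was 6.70 with an exact 95% interval of 0.898 to 297, which covers counting error only. The fitted log2 change over all lines was 1.72 (SE 0.26), or 3.30-fold, with an edgeR adjusted p of 0.00544, and it was 1.69 without G9577. Each line left out in turn gave an edgeR adjusted p of 0.00376 to 0.0300.

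Bcl2l11 encodes BIM, a BH3-only protein that binds all pro-survival members and can activate BAX (mm9 chromosome 2, 127951774 to 127988283, plus strand). It stood at 63.4, 84.2, 75.7, 71.4 and 49.9 CPM with MYCN on and at 79.3, 113, 88.0, 121 and 121 CPM with MYCN off. Each line had less Bcl2l11 with MYCN on, although the on library of G9351 lay above the off library of G4314. In the fit Bcl2l11 was 1.51-fold lower, a log2 change of -0.60 (SE 0.18), with an edgeR adjusted p of 0.0387. As for Bax, the call was lost without G4314, G9351, G9488 or G9529, here with edgeR adjusted p of 0.0700, 0.0831, 0.0529 and 0.0850. Over all alternatives the adjusted p ran from 0.00558 to 0.110.

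Bad encodes a BH3-only protein that binds BCL-XL and BCL2 and is held inactive by phosphorylation (mm9 chromosome 19, 7016351 to 7026395, plus strand). It shares 517 of its 1521 exon bases with Gpr137, and reads there were not counted. With MYCN on it stood at 15.1, 28.4, 34.7, 20.6 and 27.9 CPM, and with MYCN off at 33.3, 36.7, 37.0, 24.4 and 46.9 CPM. All 5 lines had less Bad with MYCN on, by very different amounts, from -0.09 in G9488 to -1.13 in G4314. Its fitted log2 change was -0.52 (SE 0.19, 95% interval -0.97 to -0.06) and did not pass after adjustment (edgeR adjusted p 0.0794). DESeq2 called it, with an adjusted p of 0.0290, in a range of 0.0290 to 0.317 over all alternatives.

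Bbc3 encodes PUMA, a BH3-only protein known as a target of p53 (mm9 chromosome 7, 16894932 to 16903683, plus strand). It stood at 20.4, 38.1, 22.0, 31.3 and 10.3 CPM with MYCN on and at 44.5, 29.1, 17.8, 22.6 and 24.3 CPM with MYCN off. The lines moved in opposite directions, with changes of -1.12 in G4314 and -1.22 in G9577 and of 0.30 to 0.46 in the other 3. The fitted log2 change was -0.23 (SE 0.32, 95% interval -0.98 to 0.53; edgeR adjusted p 0.608), and it was 0.03 without G9577. Trp53 itself, an altered gene of the genotype, had 10.7 to 17.9 CPM in the 10 libraries and a fitted log2 change of 0.08 (SE 0.23; edgeR adjusted p 0.819).

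MYC proteins with their partner MAX bind the E-box CACGTG, which reads the same on both strands, so the promoters of the members were searched for it. The windows reach from 250 bases before to 50 after each annotated start, were taken from RefSeq for GRCm38.p6, and are in another build than the mm9 gene positions above. All 10 members matched, with 16 windows between them. CACGTG was in 2 of the 16 windows, 1 of Bax and 1 of Bbc3, compared with 7.15% of the 32851 windows of all genes. Bax has it with the first base at position -9 and again at 36, counted from the annotated start, and 1 of 3 windows of Bbc3 has it at -64. None was found in the windows of the other 8 members. A match is only a description of these letters and no binding was measured here. The sequences are shown 5′ to 3′ on the strand of the gene for the 3 members that rose and for Bbc3, as the 150 bases before the start, with CACGTG in capitals, and for Bax also as the 30 bases around the motif after the start.
Bax, chr7:45466899-45467048, minus strand: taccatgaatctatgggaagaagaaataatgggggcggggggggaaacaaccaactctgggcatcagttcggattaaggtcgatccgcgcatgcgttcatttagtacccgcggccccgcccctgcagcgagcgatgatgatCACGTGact
Bax after the start, chr7:45466849-45466878, minus strand: atgttgcggggcaccCACGTGagggccgca
Bbc3, chr7:16310281-16310430, plus strand: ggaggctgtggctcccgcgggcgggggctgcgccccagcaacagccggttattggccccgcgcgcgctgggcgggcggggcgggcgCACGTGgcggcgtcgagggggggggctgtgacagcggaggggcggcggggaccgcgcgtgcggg
Bid, chr6:120916825-120916974, minus strand: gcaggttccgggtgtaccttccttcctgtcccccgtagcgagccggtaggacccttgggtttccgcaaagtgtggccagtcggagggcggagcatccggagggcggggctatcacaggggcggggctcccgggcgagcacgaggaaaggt
Hrk, chr5:118169614-118169763, plus strand: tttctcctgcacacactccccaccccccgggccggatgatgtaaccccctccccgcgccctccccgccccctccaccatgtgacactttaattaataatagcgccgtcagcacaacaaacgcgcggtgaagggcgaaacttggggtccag

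Per length of transcript, Bax and Mcl1 were the most abundant members. With MYCN on, the median RPKM over the 5 lines was 115 for Bax and 60.4 for Mcl1, followed by Bid (22.0), Bcl2l1 (20.9), Bad (18.3), Hrk (15.5), Bbc3 (11.1), Bak1 (9.10) and Bcl2 (4.14), with Bcl2l11 between Bbc3 and Bak1. Bax (99.8 to 148) lay above Mcl1 (50.5 to 96.5) and Mcl1 above Bid (16.0 to 35.2) without overlap, whereas every later pair of neighbours in this order overlapped. With MYCN off, the order was Bax (81.6), Mcl1 (46.6), Bcl2l1 (44.2), Bad (24.1), Bcl2l11 (15.9), Bbc3 (12.3), Bak1 (7.12), Bid (6.21), Bcl2 (4.45) and Hrk (4.41), and all neighbours overlapped. Bid stood at rank 8 and Hrk at rank 10 with MYCN off, and at ranks 3 and 6 with MYCN on. RPKM divides by the full length of Bad, including the 517 bases shared with Gpr137 where reads were not counted. Over its other 1004 bases the median of Bad was 27.8 with MYCN on and 36.5 off, which puts Bad at rank 3 and Bid at rank 4 with MYCN on and leaves the order with MYCN off as it was.

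The 3 pro-survival genes made up a smaller share of the summed RPKM of the 10 members with MYCN on in every line. Their summed RPKM itself was higher with MYCN on in G9488 (85.5 on, 71.7 off) and lower in the other lines, by little in G4314 (96.8 on, 102 off). The pro-survival share was 34.3% on and 38.3% off in G4314, 30.4% and 39.6% in G9351, 31.3% and 33.2% in G9488, 24.0% and 36.7% in G9529, and 30.5% and 57.4% in G9577. The drop in share was small in G9488 and G4314 and largest in G9577, where Mcl1 alone held 80.5% of the pro-survival sum with MYCN off. Within the pro-survival sum, Bcl2l1 went from 46.3% off to 28.7% on in G4314, from 45.9% to 29.4% in G9351, from 37.8% to 24.5% in G9488, from 42.6% to 26.0% in G9529 and from 17.3% to 15.6% in G9577. Mcl1 was the most abundant pro-survival transcript per length in every library except the MYCN-off library of G9351, where Bcl2l1 was. Bcl2 never exceeded 9.19% of the pro-survival sum. This sum covers only the 3 pro-survival members. Bcl2l2, a pro-survival gene outside the members, ran from 8.11 to 28.5 RPKM and lay above Bcl2 in every library. The effectors held 44.0% on and 38.1% off in G4314, 38.6% and 33.3% in G9351, 39.8% and 40.8% in G9488, 50.1% and 41.2% in G9529, and 52.4% and 23.7% in G9577. Their share was thus higher with MYCN on in 4 lines and lower in G9488, and most of it was Bax. The BH3-only share went from 23.6% off to 21.7% on in G4314 and from 18.9% to 17.2% in G9577, and it was higher with MYCN on in the other 3 lines, at 31.0%, 28.9% and 25.8% on against 27.1%, 26.0% and 22.1% off in G9351, G9488 and G9529. With Bad over its countable bases the pro-survival share was still lower with MYCN on in every line, from 31.4% off to 29.99% on in G9488 and by more in the others.

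**Figure D3:**
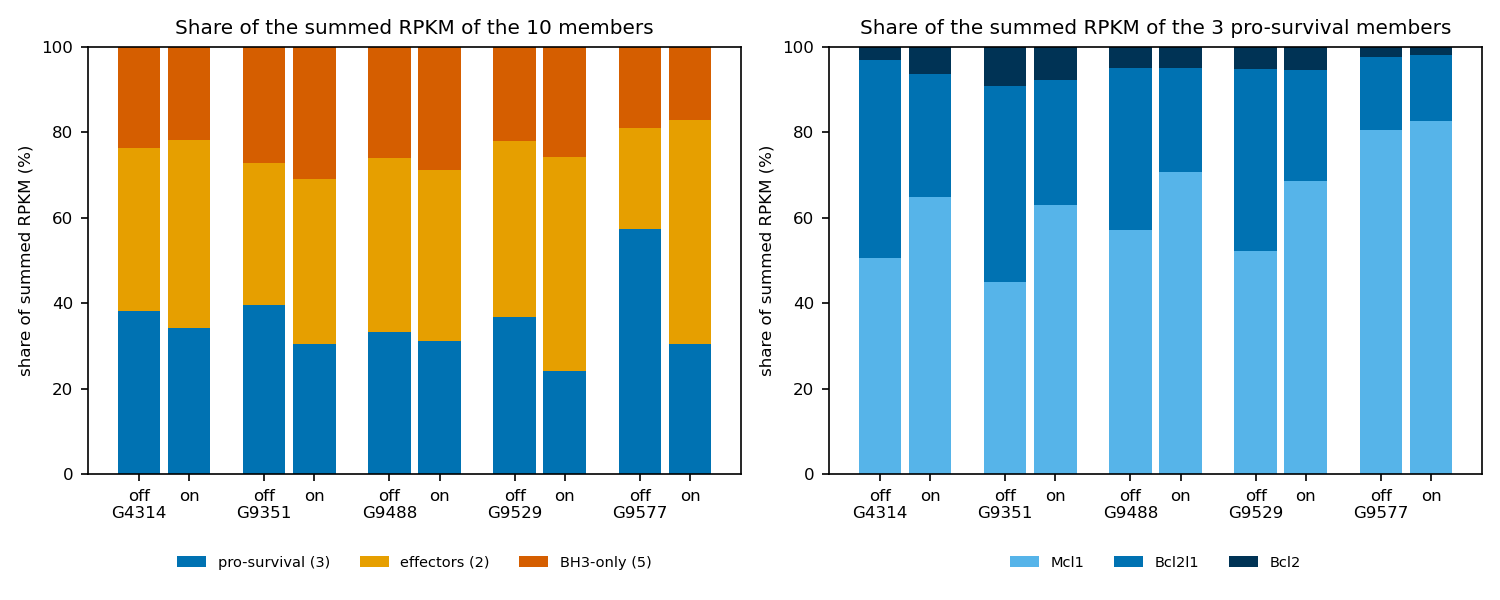
Left, share of the summed RPKM of the 10 members (y axis, percent) held by the 3 pro-survival genes, 2 effectors and 5 BH3-only genes in each library; right, share of the pro-survival sum held by Mcl1, Bcl2l1 and Bcl2. The blue pro-survival part is lower with MYCN on in all 5 lines, from 57.4% to 30.5% in G9577, and Bcl2l1 gives up share to Mcl1 in each line.

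As a description without a test, the mean log2 change of the 7 pro-death members minus that of the 3 pro-survival members was 0.20, 0.69, 0.45, 1.02 and 1.35 in G4314, G9351, G9488, G9529 and G9577, and 0.75 from the fit. In the fit the pro-survival mean was -0.34, the effector mean 0.42 and the BH3-only mean 0.41. The lines reached their differences through different genes. In G9577 the pro-survival mean was -1.25 and the BH3-only mean -0.21, whereas in G9529 the BH3-only mean was 0.81 and in G4314 and G9488 the pro-survival mean was above 0, at 0.17 and 0.13. The fitted pro-death mean was 0.41 with Hrk and 0.19 without it. In G9577, where Hrk rests on 8 and 1 counts, the pro-death mean was 0.11 with Hrk and -0.15 without it. In G4314 it was 0.37 with Hrk and 0.16 without it, the latter under the pro-survival mean of 0.17. Without Hrk the pro-death mean stayed above the pro-survival mean in every other line. The 5 BH3-only genes did not move as 1 group, since Bid and Hrk rose, Bcl2l11 fell, and Bbc3 and Bad did not pass.

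**Figure D4:**
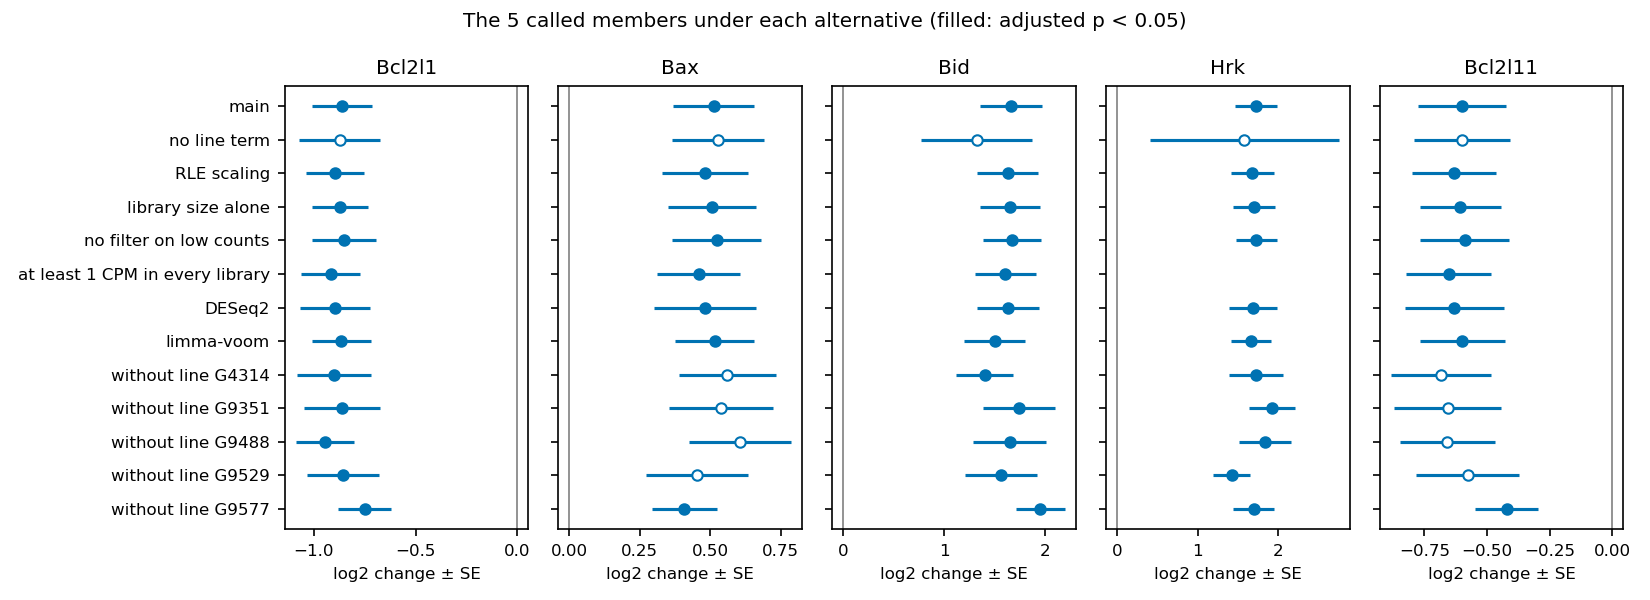
Fitted log2 change ± SE (x axis) of the 5 called members under the reported test and each alternative (y axis); filled points have an adjusted p below 0.05. Bcl2l1, Bid and Hrk stay filled with each line left out, Bax and Bcl2l11 are open without G4314, G9351, G9488 or G9529, all 5 are open without the line term, and Hrk has no value where at least 1 CPM was required in every library.

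The other BCL2 family genes were 16 in all, of which 11 had enough counts to be tested. Of these, 1 was higher and 1 lower with MYCN on, a smaller share than the 31.0% of all genes tested. Bok, a relative of BAX and BAK1 (mm9 chromosome 1), stood at 81.7, 70.5, 59.8, 70.1 and 116 CPM with MYCN on in G4314, G9351, G9488, G9529 and G9577, and at 29.4, 31.7, 41.0, 40.0 and 26.9 CPM with MYCN off. Its groups did not overlap, and it was higher in 5 of 5 lines by a fitted log2 change of 1.21 (SE 0.23), or 2.32-fold, with an edgeR adjusted p of 0.0108. Any line left out kept the call of Bok. Bik, a BH3-only gene, was lower by a fitted log2 change of -1.26 (SE 0.28; edgeR adjusted p 0.0160), but G9351, G9488 and G9577 had at most 22 counts each, and without G4314 the adjusted p was 0.0753, in a range of 0.000385 to 0.672 over all alternatives. Of Bcl2l2 (BCL-W, pro-survival), Bmf and Pmaip1 (NOXA), none passed, with log2 changes of -0.33, -0.82 and 0.92 and edgeR adjusted p of 0.320, 0.140 and 0.313. The 6 distant relatives Bcl2l12, Bcl2l13, Bcl2l14, Bcl2l15, Bnip3 and Bnip3l did not pass either, with log2 changes of -0.93 to 0.14. Bcl2a1a, Bcl2a1b, Bcl2a1c and Bcl2a1d, near-identical copies whose shared reads were not counted, had 0 counts in all libraries, and Bcl2l10 had at most 2.

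At the mitochondrion and downstream of it, 13 genes of release and caspase activation were tested. Of these, 3 were higher and 1 lower with MYCN on, a share close to the background given above. Aifm1, a mitochondrial flavoprotein, was 1.57-fold higher (edgeR adjusted p 0.0350), and the channel genes Vdac2 and Vdac3 were 1.29-fold and 1.51-fold higher (edgeR adjusted p 0.0381 and 0.0384), each in 5 of 5 lines. The call of Aifm1 was lost without G4314 or G9351 (edgeR adjusted p 0.122 and 0.112), that of Vdac3 without G4314, G9351 or G9529 (0.125, 0.126 and 0.0697), and that of Vdac2 without any 1 line other than G9577 (0.0751 to 0.140). Casp6, an executioner caspase, was 1.88-fold lower (edgeR adjusted p 0.0453), and no line could be left out with its call kept (0.0515 to 0.107). Vdac2 was also not called with RLE scaling (adjusted p 0.0569), without a filter on low counts (0.0662) or with at least 1 CPM in every library (0.0565). Vdac3 was not called with RLE scaling (0.050003) and Casp6 without the filter (0.0505). Over all alternatives the adjusted p ran from 0.0147 to 0.272 for Aifm1, 0.0332 to 0.474 for Vdac2, 0.0204 to 0.297 for Vdac3 and 0.00578 to 0.481 for Casp6. Casp9, the initiator caspase of this route, had a log2 change of -0.97 (SE 0.32; edgeR adjusted p 0.0540), and Apaf1, which assembles the complex that activates it, had 0.26. Of the inhibitor of apoptosis genes, 5 were tested and Xiap, which blocks caspases directly, was 1.53-fold lower (116 ± 18.5 CPM on, 176 ± 20.3 CPM off; edgeR adjusted p 0.0272), a call lost without G9488 or G9529 (0.0743 and 0.0556, in a range of 0.00209 to 0.0743 over all alternatives). Of the death receptor route, 8 genes were tested and Cflar, which restrains caspase 8, was 2.60-fold lower in the fit (6.72 ± 4.32 CPM on, 18.4 ± 14.5 CPM off; edgeR adjusted p 0.00591), lower in 5 of 5 lines and called with any 1 line left out. Xiap and Cflar were the only calls of their lists, smaller shares than the 31.0% of all genes tested. Casp8, which cuts BID, had a log2 change of -0.18 (SE 0.21; edgeR adjusted p 0.545), and Fas, a death receptor, did not pass the filter because it had 0 counts in both libraries of the other 4 lines. In G9577 Fas had 120 counts on and 925 off, a difference with no replicate.

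**Figure D5:**
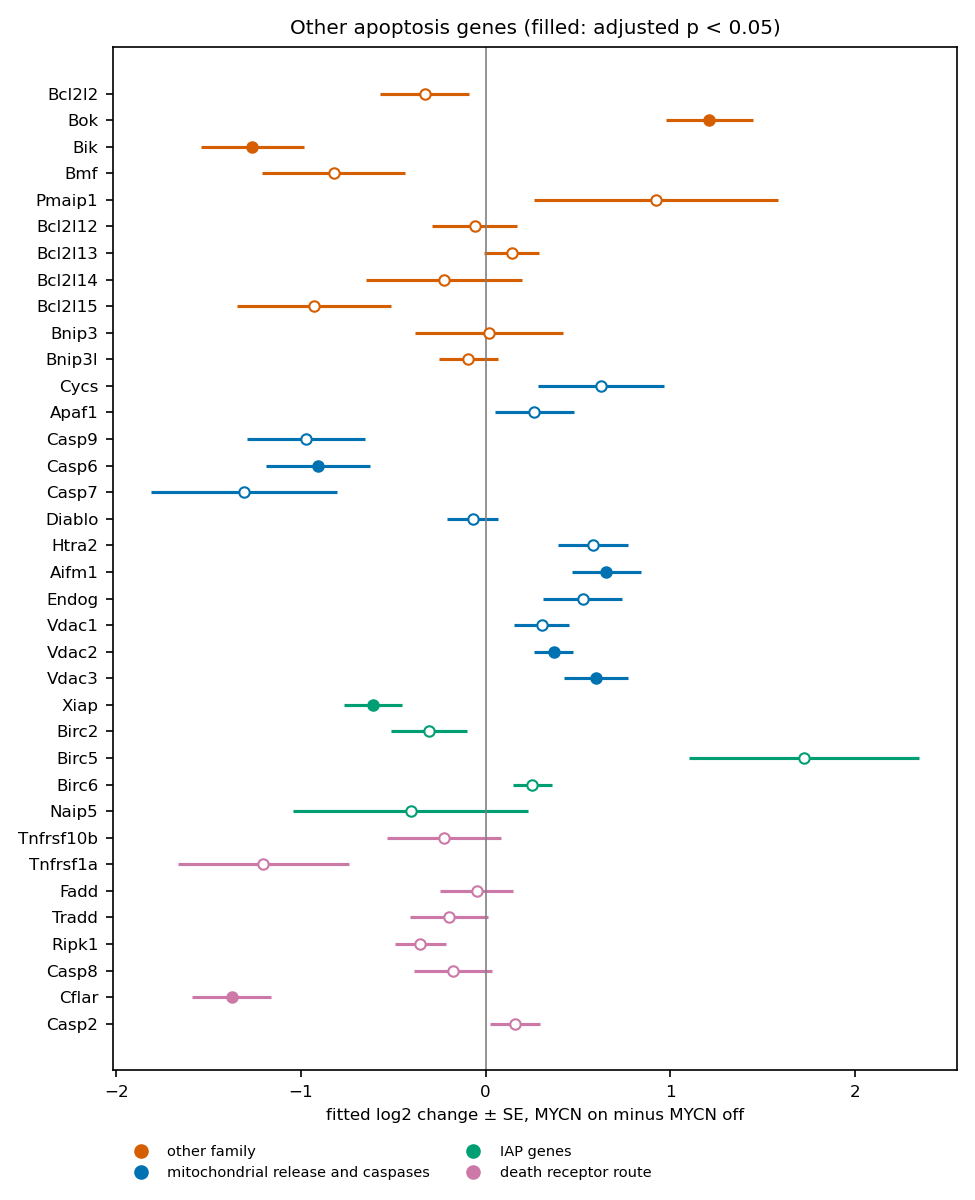
Fitted log2 change ± SE with MYCN on minus MYCN off (x axis) of the other apoptosis genes tested and reported here, coloured by list; filled points have an adjusted p below 0.05. Bok stands right of 0 at 1.21 and Cflar and Bik left of 0 at -1.38 and -1.26, and most points are open.

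The genes whose log2 CPM over the 10 libraries was most like that of the 2 members with the smallest p were listed as a description. For Hrk these were Mal2, Hif3a, Plekhh1 and Lrfn1, with Pearson correlations of 0.978, 0.977, 0.977 and 0.970. The 10 libraries share 5 lines, and without G9577, where Hrk is near 0, the correlations were 0.816, 0.833, 0.777 and 0.665. For Bcl2l1 they were Cd99l2, Ankrd35, Dnajc18 and Gnas, with 0.970, 0.969, 0.968 and 0.967, and without G9577 with 0.957, 0.975, 0.954 and 0.963.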

How the data were processed

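The deposited files, 1 per library, hold raw read counts for each gene, which the authors made with featureCounts 1.6.0 without strand from mm9 gene models, per the file headers. The submitters' processing notes name STAR 2.5.2a for alignment to mm9 and bcl2fastq 1.8.4. Per the labels' protocols, polyadenylated RNA was selected and sequenced with a kit that does not mark strand, so reads of a gene and of an antisense partner cannot be told apart. Reads with several alignments, or over more than 1 gene, were left uncounted, as the command in the file headers sets no option to count them. All file headers name the same sequencing run.

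Genes were filtered with filterByExpr (minimum count 10) and scaled with TMM factors. The test was edgeR 4.0.16 (R 4.3.3), quasi-likelihood, two-sided, with the line as a block, 4 residual degrees of freedom and a biological coefficient of variation of 28.5%. SE was taken as log2 change over the square root of F. For single lines, log2 CPM (prior count 2) was subtracted, off from on. Alternatives were DESeq2 1.42.0, limma-voom (limma 3.58.1), other scalings and filters, no line term, and each line left out. The code was tested on simulated counts.

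The labels pair the libraries by line, and this was checked. Deviations from the group means correlated with r of 0.721 to 0.873 within a line, and at most 0.273 between lines. With the line as a block, the p-values rest on the spread of the on-minus-off change among the 5 lines. The quasi-likelihood fit also draws the spread of each gene toward that of the other genes. Thus p does not rest on the 5 changes of that gene alone. With 1 culture per line and condition, noise of culture and library is part of the spread among lines and cannot be told apart.

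The members and gene lists were chosen with earlier results of these data known. The rule for named genes took all members and the other family genes, up to 4 called genes with the smallest p from each other list, Mycn, Rb1 and Trp53, and the 4 genes most like each of the 2 members with the smallest p. Casp9, Htra2, Apaf1, Casp8, Fas, Birc5, Foxo3, Ddit3, Huwe1, Fbxw7, Usp9x and the markers printed were named after their values were seen. Some list members are not reported here.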

Additional observations from a re-analysis of the deposited data

Results flagged for a closer look

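Each member's 5 on libraries, 5 off libraries and 5 line changes were checked on the log2 scale for a line far from the others, which made 30 groups. Dixon's gap (critical value 0.71 for 5 values) marked 6 groups, all for G9577, where chance marks about 1 group in 20. The line differs from the others by its markers as described above, and the part of this in the 6 values was not tested. Mcl1 with MYCN off stood at 716 CPM in G9577, with the next highest line at 181 CPM. The log2 change of Mcl1 in G9577 was -1.09, with the next lowest line at 0.14. In G9577 the level of Bak1 was 106 CPM on and 59.9 CPM off, and the next highest lines had 18.3 and 15.1 CPM. That of Hrk was 0.745 CPM on and 0.111 CPM off, and the next lowest lines had 64.4 and 15.5 CPM.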

How the results depend on the processing

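RLE scaling, library size alone, no filter on low counts and limma-voom called the same 5 members, and DESeq2 called these and Bad. A filter of at least 1 CPM in every library removed Hrk from the test and called the other 4. The calls depend on the pairing by line: without the replicate block, 0 members were called, 0 higher and 0 lower, with 4 at an unadjusted p under 0.05, and 274 genes were called in place of 3973. Leaving out each line gave 3 to 5 members called, with 1 to 2 lower and 3 or fewer higher. Without G4314 or G9351, 1768 and 1729 genes were called.

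The difference between pro-death and pro-survival changes kept its direction in all alternatives that gave a value, and it was 0.60 without G9577. The filter of at least 1 CPM in every library, which removed Hrk, gave no value, so none of these alternatives left Hrk out. By line, leaving out Hrk turned the difference in G4314, as described above. The sign of Mcl1 turned without the replicate block (-0.27), with RLE scaling (-0.0079), with at least 1 CPM in every library (-0.0295), with DESeq2 (-0.0075) and with limma-voom (-0.00057), and its values with a line left out ran from -0.0754 to 0.30. The sign of Bnip3 turned with RLE scaling (-0.0144), at least 1 CPM in every library (-0.0354) and DESeq2 (-0.0188), and ran from -0.36 to 0.34 with a line left out. With a line left out, log2 changes ran from -0.49 to 0.12 for Bcl2, -0.43 to 0.0282 for Bbc3, -0.23 to 0.10 for Bcl2l12, -0.64 to 0.14 for Bcl2l14, -0.15 to 0.0787 for Bnip3l and -0.0697 to 0.21 for Trp53. None of these genes was called, and the cause of the turns was not tested. Counting only the exon bases of Bad that no other gene shares, an alternative chosen after seeing the data, gave a median RPKM of 27.8 in place of 18.3 with MYCN on and of 36.5 in place of 24.1 off. The depth limits Hrk in G9577, Bik and Pmaip1, which had 0 to 22 counts in several libraries.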

Other observations

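Among 10 tested genes for transcription factors known to act on BH3-only genes, Mycn and Atf4 were higher with MYCN on and Myc was lower. This share is close to the 31.0% of all genes tested that were called, and Mycn is the gene that the design switches. Atf4, a factor of the integrated stress response, stood at 595 ± 191 CPM on and 328 ± 95.6 CPM off (SD, n = 5 lines), higher in 5 of 5 lines by a fitted log2 change of 0.85 (SE 0.21), with an edgeR adjusted p of 0.0234. The call of Atf4 was lost without G9351, G9488 or G9529 (edgeR adjusted p 0.0859, 0.0575 and 0.0700, in a range of 0.00199 to 0.113 over all alternatives). Myc, the paralog of Mycn, was 6.22-fold lower in the fit (3.11 ± 4.45 CPM on, 17.3 ± 21.8 CPM off; edgeR adjusted p 0.00339), lower in 5 of 5 lines, with as few as 6 counts in a library. Foxo3, a regulator of Bcl2l11 and Bbc3, had a log2 change of -0.39 (SE 0.22; edgeR adjusted p 0.203), and Ddit3 had -0.08.

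Of 13 genes that control BCL2 family proteins after translation, all tested, Akt1, the kinase that phosphorylates BAD, was 1.45-fold higher with MYCN on (324 ± 112 CPM on, 217 ± 45.9 CPM off; edgeR adjusted p 0.0314), higher in 5 of 5 lines. Akt1 was the 1 gene of this list that was called, a smaller share than the 31.0% of all genes tested. The call was lost with any 1 of the 4 lines other than G9577 left out (edgeR adjusted p 0.0697 to 0.0883, in a range of 0.0177 to 0.222 over all alternatives). The ubiquitin ligase genes Huwe1 and Fbxw7, which act on MCL1, had log2 changes of 0.24 and -0.03 (edgeR adjusted p 0.164 and 0.919), and Usp9x, which removes ubiquitin from MCL1, had -0.08 (0.560).

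Rb1, an altered gene of the genotype, still had counts in all libraries, at 20.0 to 161 CPM on and 33.0 to 329.5 CPM off, with a log2 change of -0.86 (SE 0.15; edgeR adjusted p 0.00885). The sources used here do not give which part of Rb1 or Trp53 is altered, so these counts check nothing about the alteration. Birc5, the survivin gene, had the largest fitted rise among the IAP genes tested, 1.73 (SE 0.62), which did not pass (edgeR adjusted p 0.0709).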
